A study of Homo sapiens with 16 samples.

Results

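NEAT1, MALAT1, PVT1, GAS5, SNHG1 and SNHG12 are long noncoding RNAs, taken by symbol from a count table of 25369 genes. They are 6 of those genes, and they fall into 2 kinds: NEAT1, MALAT1 and PVT1 act largely in the nucleus and have been linked to p53, while GAS5, SNHG1 and SNHG12 carry small nucleolar RNAs (snoRNAs) in their introns. The libraries come from TPC1 and K1, lines of papillary thyroid carcinoma that hold wild type p53. TPC1 was grown in RPMI and K1, a derivative of the line GLAG-66, in DMEM. Each line was treated for 24 h in 4 ways: with the vehicle DMSO at 0.2%, with 10 µM of the MDM2 inhibitor nutlin-3a, with 25 µM of the PPM1D inhibitor GSK2830371, or with the 2 drugs combined. There are 2 libraries per line and treatment, 16 in all. The methods describe replicates in general as independent biological ones. A line differs from the other in its medium as well as its origin, and these cannot be told apart.

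p53 is held down by MDM2, which marks it for destruction, and by the phosphatase PPM1D, which removes activating phosphates, so inhibitors of either can raise p53 activity. NEAT1 builds paraspeckles, MALAT1 gathers in nuclear speckles with splicing factors, and PVT1 lies beside the oncogene MYC; transcription of NEAT1 and PVT1 by p53 has been described. The spliced RNAs of GAS5, SNHG1 and SNHG12 are byproducts of snoRNA production, usually degraded during translation by nonsense-mediated decay, and many snoRNA host genes begin with a run of pyrimidines (a 5' terminal oligopyrimidine, or TOP, start) that ties their translation to growth signals.

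The 4 TPC1 libraries numbered 1 held 30789887 to 36896529 counted reads, the 4 numbered 3 held 62853375 to 76648552, and the 8 K1 libraries held 28888686 to 37161241. Levels are given as counts-per-million (CPM), scaled by the trimmed mean of M values (TMM), with no correction for gene length, so levels of different genes are not compared. Reads were counted on exons of the annotated strand, which separates each RNA from antisense neighbours. Small RNA genes lying inside these 6 on the same strand are within their spans, the snoRNA genes in introns. Reads from unspliced RNA can therefore fall on the small RNA genes. The libraries were made from polyadenylated RNA. The main MALAT1 transcript and the long form of NEAT1 end without an ordinary poly(A) tail, and mature snoRNAs have none, so these are seen only in part.

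Thyroid identity was checked on marker genes. The thyroid factor PAX8 averaged 363 CPM in TPC1 and 792 in K1, and FOXE1 24.3 and 32.8, whereas thyroglobulin (TG) was at 1.82 and 4.48, TSHR at 0 in both lines, and NKX2-1 at 0 in TPC1 and 0.148 in K1. Of the epithelial markers, KRT8 was at 419.5 and 761 CPM, but EPCAM (0.0887 and 0.306) and CDH1 (0.00893 and 0.0199) were near 0. Among leukocyte markers PTPRC (0 and 0.0257) and CD3E (0 in both lines) were at or near 0, while CD68 was at 51.1 and 65.3 and CD14 at 0.217 and 3.49. Of the endothelial markers PECAM1 (0.0271 and 0.0119) and CDH5 (0.0571 and 0.0113) were near 0 and KDR was at 0.0088 and 5.44. The fibroblast marker THY1 reached 102.5 CPM in K1 against 0.27 in TPC1. Some thyroid factors and keratins were thus present and others near 0. In TPC1 the summed fibroblast list went from 23.7 and 21.4 CPM in DMSO to 4.84 and 6.61 with the combination. It stood at 11.3 and 11.7 with nutlin and 12.85 and 12.94 with GSK2830371. The epithelial list went from 788 and 915 in DMSO to 426.5 and 499 with the combination. The leukocyte list, led by CD68, went from 34.3 and 36.9 to 67.6 and 73.0 with nutlin and 56.9 and 44.9 with the combination. The mean sum of the endothelial list went from 0.714 to 1.64 with the combination, and that of the thyroid list from 348.5 to 487 with nutlin. In K1 the combination took the mean sums from 8.29 to 4.02 for the endothelial, 129 to 92.2 for the fibroblast and 1202 to 936 for the epithelial list. The part of these shifts in the results was not tested. In these bulk libraries fewer cells of a kind and less RNA per cell cannot be told apart.

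Before the values, the starts of 3 of these RNAs are shown, because a TOP start is a feature of snoRNA hosts; the start of the third host, GAS5, is not described here. Each line holds 20 bases before and 30 bases from the most frequent start among GENCODE 44 transcripts of the gene, 5' to 3', in GRCh37. Capitals mark the unbroken pyrimidine run that begins at the first transcribed base.
SNHG1: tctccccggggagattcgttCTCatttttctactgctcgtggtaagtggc
SNHG12: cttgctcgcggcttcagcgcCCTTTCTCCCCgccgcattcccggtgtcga
MALAT1: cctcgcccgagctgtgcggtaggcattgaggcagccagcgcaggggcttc
The windows lie at chr11:62623328-62623377 on the minus strand (SNHG1, start of 25 of 80 transcripts), chr1:28908356-28908405 on the minus strand (SNHG12, 4 of 19) and chr11:65266496-65266545 on the plus strand (MALAT1, 19 of 66). SNHG12 opens with C in a run of 11 pyrimidines, while the run of SNHG1 stops after 3 and MALAT1 opens with A. A start of C followed by at least 4 further pyrimidines is present in 3.09% of the 21539 genes of the table with an annotated start.

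The 6 genes lie on 3 chromosomes. NEAT1 (chr11:65190245-65213011, plus strand) and MALAT1 (chr11:65265111-65275544, plus strand) are neighbours, 52099 bases apart. PVT1 spans 392576 bases of chromosome 8. GAS5, on chromosome 1, contains 11 snoRNA genes, SNHG1 (chr11:62619450-62623425, minus strand) 9, and SNHG12 (chr1:28905050-28909644, minus strand) 4. The hosts span 3976 to 10324 bases, against 10434 for MALAT1 and 22767 for NEAT1.

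Changes were tested with the edgeR quasi-likelihood test on all 8 libraries of a line together, with Benjamini-Hochberg adjustment over 15273 genes in TPC1 and 15900 in K1. A gene is called when its adjusted p is under 0.05 and its change exceeds 1.5-fold (0.585 in log2). All 6 RNAs passed the filter for low counts in each line. The p53 pathway responded: mean CDKN1A went from 138 CPM in DMSO to 6740.4 with nutlin, 168 with GSK2830371 and 12295 with the combination in TPC1, and from 114 to 1022, 230.1 and 1549 in K1. Of the 6 p53 check genes, 5 rose in TPC1 and 4 in K1 with nutlin, where 17.5% and 3.84% of all tested genes rose.

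With nutlin against DMSO in TPC1, 3 of the 6 RNAs rose (NEAT1, PVT1, GAS5) and SNHG1 fell, where 35.5% of all tested genes were called; in K1 3 rose (NEAT1, MALAT1, PVT1) and SNHG1 fell, against 9.27%. With the combination against DMSO, 3 rose in TPC1 (NEAT1, PVT1, GAS5) with 44.2% of genes called, and in K1 the same 3 as with nutlin rose and SNHG1 fell with 15.7%. The combination against nutlin called 3 higher in TPC1 (PVT1, GAS5, SNHG1; 12.1% of genes) and MALAT1 alone in K1 (2.68%). Against GSK2830371 the combination called 4 higher in TPC1 (NEAT1, PVT1, GAS5, SNHG12; 38.5%), and 3 higher (NEAT1, MALAT1, PVT1) and 2 lower (SNHG1, SNHG12) in K1 (13.1%). In TPC1 a large share of all genes moved, so 3 or 4 calls among 6 stand less far from the background there than in K1. The comparisons with DMSO share their control libraries.

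GSK2830371 alone gave no call among the 6 with edgeR in either line, where 1.4% of genes were called in TPC1 and 2.23% in K1. In TPC1 4 of the 6 had an unadjusted p under 0.05 (NEAT1, PVT1, SNHG1, SNHG12) and in K1 0 did; the DESeq2 Wald test called 0 in each line, but in TPC1 edgeR called NEAT1 with a replicate block and with no filter. The interaction, which asks whether the combination differs from the sum of the single drugs in log2, called 4 RNAs higher in TPC1 (PVT1, GAS5, SNHG1, SNHG12; 6.32% of genes). In K1 edgeR called 0 for the interaction (2.44% of genes), with 0 at an unadjusted p under 0.05 and 0 by DESeq2. The 4 calls in TPC1 became 2 (PVT1 and SNHG1) without TPC1 GSK2830371 replicate 3 or TPC1 nutlin replicate 3, and the 0 in K1 became 1 (MALAT1) without K1 combination replicate 1. PVT1 and SNHG1 thus departed from additivity in TPC1 whichever library was left out.

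**Figure D1:**
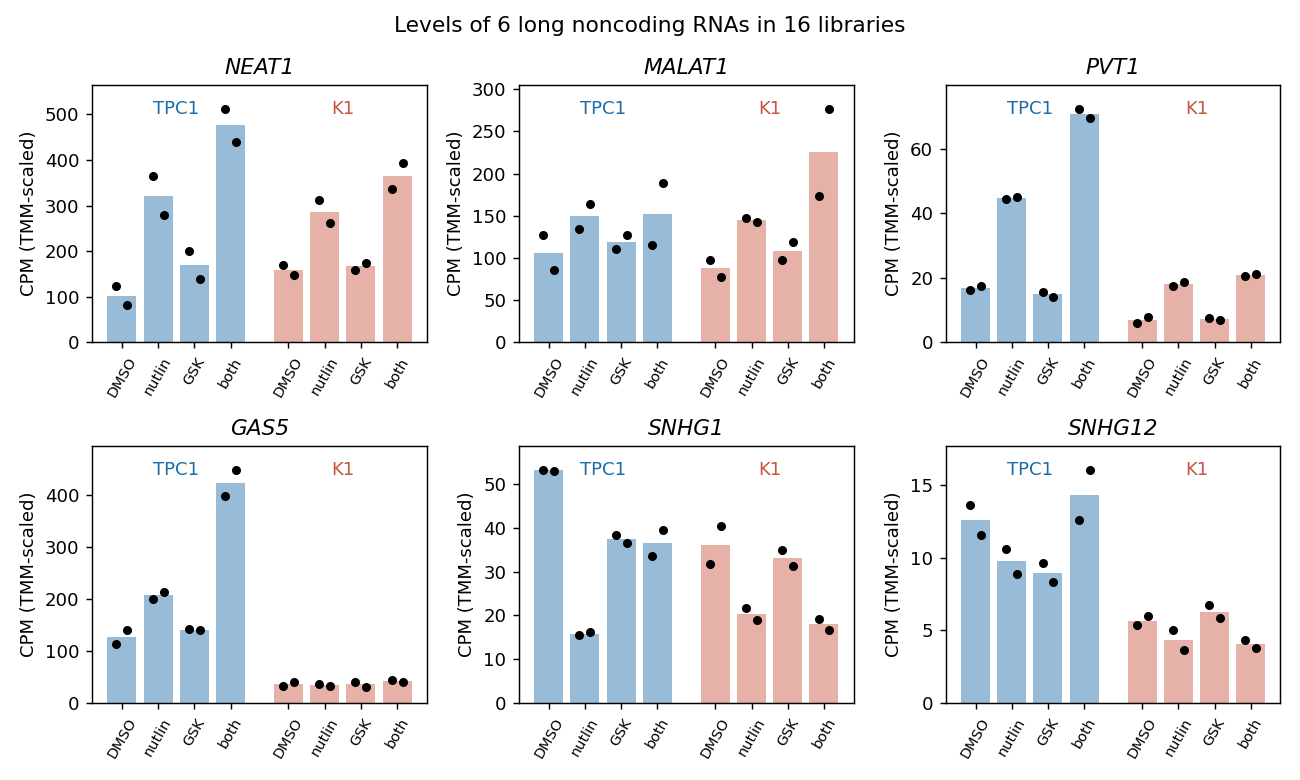
Levels of the 6 RNAs in 16 libraries, as bars of the group mean with a dot for each library. In TPC1 NEAT1 reached 512 and 440.1 CPM and GAS5 397 and 448 CPM with the combination.

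NEAT1, the scaffold of paraspeckles, stood in TPC1 (replicates 1 and 3) at 124 and 81.1 CPM in DMSO, 364 and 278 with nutlin, 201 and 139 with GSK2830371 and 512 and 440.1 with the combination. The groups were ordered DMSO, GSK2830371, nutlin, combination and did not overlap, although replicate 1 was the higher in every group. It rose 3.13-fold with nutlin, log2 fold change 1.65 (SE 0.23, adjusted p 0.00028) by edgeR quasi-likelihood and Benjamini-Hochberg, and 4.65-fold with the combination, 2.22 (SE 0.24, adjusted p 3.3e-05). With GSK2830371 the change was 0.73 (SE 0.23, adjusted p 0.12), not called, and it was called under 2 alternative fits (no filter, adjusted p 2e-04; replicate number as a block, 2.2e-05). The combination was 0.57 (SE 0.23, adjusted p 0.098) from nutlin, also not called; with replicate number as a block it was 0.58 (adjusted p 1.8e-05), past the p threshold but under 1.5-fold, and within replicates 1 and 3 it was 0.49 and 0.66. The interaction was -0.16.

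In K1 (replicates 1 and 2) NEAT1 was at 170.2 and 147 CPM in DMSO, 311 and 261 with nutlin, 159 and 174 with GSK2830371 and 336 and 394 with the combination. Nutlin and the combination stood apart from DMSO and from each other, while GSK2830371 overlapped DMSO. It rose 1.81-fold with nutlin, log2 fold change 0.85 (SE 0.095, adjusted p 1.4e-05) by edgeR quasi-likelihood and Benjamini-Hochberg, and 2.30-fold with the combination, 1.20 (SE 0.096, adjusted p 2.7e-07). The step from nutlin to the combination, 0.35 (SE 0.094, adjusted p 0.027), passed the p threshold but was only 1.28-fold. Of the 6, NEAT1 had the largest pooled rise from DMSO in TPC1 with nutlin and the combination, although within replicate 1 PVT1 rose more with the combination (2.148 against 2.045), and against GSK2830371 PVT1 (2.26) and GAS5 (1.58) exceeded it (1.49). The difference between the lines (K1 minus TPC1) was -0.84 (SE 0.25, adjusted p 0.019) for nutlin and -1.05 (SE 0.25, adjusted p 0.0036) for the combination. The nutlin difference lost its edgeR call with library size as the only scaling (-0.77, adjusted p 0.051). It was also lost without K1 DMSO replicate 1 (-0.72), K1 nutlin replicate 2 (-0.72) or TPC1 nutlin replicate 1 (-0.64). Without TPC1 DMSO replicate 3 it was -0.58, under 1.5-fold.

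MALAT1, the speckle RNA next to NEAT1, was at 127 and 85.2 CPM in DMSO, 135 and 164 with nutlin, 111 and 127 with GSK2830371 and 116 and 189 with the combination in TPC1. DMSO overlapped GSK2830371 and the combination, and the 2 combination libraries were far apart. No change from DMSO was called: nutlin gave 0.50 (SE 0.24, adjusted p 0.11) and the combination 0.52 (SE 0.24, adjusted p 0.082) by edgeR quasi-likelihood and Benjamini-Hochberg. Within replicate 1 the combination differed from DMSO by -0.13 in log2, and within replicate 3 by 1.15. Without TPC1 DMSO replicate 1 the nutlin change was called at 0.81 (adjusted p 0.027) and the combination at 0.84 (0.02), and without TPC1 combination replicate 1 the latter was 0.84 (0.011). Against GSK2830371 the combination, 0.36 (SE 0.24, adjusted p 0.22), was called without its replicate 1 (0.67, 0.031). The result for MALAT1 in TPC1 therefore rests on which replicate is used.

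In K1 MALAT1 was at 97.5 and 77.7 CPM in DMSO, 148 and 143 with nutlin, 97.3 and 118 with GSK2830371 and 173 and 277 with the combination. The nutlin libraries were above DMSO and the combination above nutlin with no overlap, although combination replicate 2 was far above replicate 1. MALAT1 rose 1.66-fold with nutlin, log2 fold change 0.73 (SE 0.17, adjusted p 0.0044) by edgeR quasi-likelihood and Benjamini-Hochberg, and 2.57-fold with the combination, 1.36 (SE 0.17, adjusted p 1.8e-05). Without K1 DMSO replicate 2 the nutlin change was 0.57 (adjusted p 0.046), under 1.5-fold. The step from nutlin to the combination was 0.63 (SE 0.16, adjusted p 0.023), called, but it was 0.25 (0.28) without K1 combination replicate 2, not called without K1 nutlin replicate 1 (0.65, 0.11) or replicate 2 (0.61, 0.18), and not called by DESeq2 (0.62, 0.14). The interaction in K1, 0.33 (SE 0.23, adjusted p 0.43), was called without K1 combination replicate 1 (0.63, 0.045). So the rise over DMSO in K1 was present in both libraries and the added step was carried by 1. MALAT1 was called in K1 and not in TPC1, yet the lines did not differ by test: K1 minus TPC1 was 0.19 (SE 0.33, adjusted p 0.73) for nutlin and 0.80 (SE 0.33, adjusted p 0.063) for the combination. The combination difference was called with library size alone (0.92, 0.041), with a replicate block (0.81, 0.026) and without K1 combination replicate 1 (1.07, 0.02), TPC1 DMSO replicate 3 (1.04, 0.019) or TPC1 combination replicate 3 (1.17, 0.0084).

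PVT1, the RNA beside MYC, was at 16.4 and 17.6 CPM in DMSO, 44.6 and 45.2 with nutlin, 15.7 and 14.1 with GSK2830371 and 72.5 and 69.5 with the combination in TPC1. No groups overlapped, GSK2830371 lay just under DMSO, and the replicates of a group were close. PVT1 rose 2.63-fold with nutlin, log2 fold change 1.40 (SE 0.086, adjusted p 1.3e-06) by edgeR quasi-likelihood and Benjamini-Hochberg, and 4.17-fold with the combination, 2.06 (SE 0.086, adjusted p 7.7e-08). The step from nutlin to the combination, 0.66 (SE 0.083, adjusted p 7e-04), and the interaction, 0.86 (SE 0.12, adjusted p 0.0044), were called as higher. PVT1 in TPC1 thus had no called change with GSK2830371 alone, -0.20 (SE 0.087, adjusted p 0.24), and a larger rise when that drug was added to nutlin.

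In K1 PVT1 was at 6.04 and 8.01 CPM in DMSO, 17.4 and 18.8 with nutlin, 7.70 and 6.98 with GSK2830371 and 20.4 and 21.1 with the combination. GSK2830371 lay within the range of DMSO, and nutlin and the combination were far above it without overlapping each other. The rise was 2.57-fold with nutlin, log2 fold change 1.36 (SE 0.12, adjusted p 9.8e-07) by edgeR quasi-likelihood and Benjamini-Hochberg, and 2.95-fold with the combination, 1.56 (SE 0.11, adjusted p 1.2e-07). The step from nutlin to the combination was 0.20 (SE 0.10, adjusted p 0.26), not called. The nutlin response did not differ between the lines, -0.067 (SE 0.15, adjusted p 0.81), and that to the combination differed by -0.52 (SE 0.15, adjusted p 0.01), under 1.5-fold. It was called at -0.71 without K1 DMSO replicate 1, at -0.61 without TPC1 DMSO replicate 3 and at -0.59 without TPC1 combination replicate 3 (adjusted p 0.0013, 0.0066 and 0.01). Of the RNAs called with nutlin in both lines PVT1 had the most similar response.

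GAS5, a snoRNA host whose spliced RNA accumulates in growth arrest, was at 113 and 139.8 CPM in DMSO, 200.1 and 214 with nutlin, 141 and 141 with GSK2830371 and 397 and 448 with the combination in TPC1. The groups did not overlap, and the combination stood far above every other group. GSK2830371 lay just above DMSO, and its change of 0.16 (SE 0.11, adjusted p 0.45) was not called by edgeR quasi-likelihood with Benjamini-Hochberg. GAS5 rose 1.64-fold with nutlin, log2 fold change 0.71 (SE 0.11, adjusted p 0.00047) by edgeR quasi-likelihood and Benjamini-Hochberg, and 3.34-fold with the combination, 1.74 (SE 0.11, adjusted p 1.1e-06). Without TPC1 DMSO replicate 1 the nutlin change was 0.56 (adjusted p 0.0017), under 1.5-fold. The step from nutlin to the combination was 2.04-fold, 1.03 (SE 0.11, adjusted p 0.00031). The interaction was 0.87 (SE 0.15, adjusted p 0.012), and it lost its call without TPC1 GSK2830371 replicate 1 or 3 (0.87, 0.053 in each), nutlin replicate 1 (0.82, 0.067) or nutlin replicate 3 (0.92, 0.052), with its size little changed. Of the 3 hosts GAS5 alone rose over DMSO in TPC1.

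In K1 GAS5 was at 32.5 and 39.9 CPM in DMSO, 36.2 and 32.0 with nutlin, 40.2 and 31.6 with GSK2830371 and 44.4 and 41.2 with the combination. The first 3 groups overlapped and the combination lay just above them. No change was called by edgeR quasi-likelihood with Benjamini-Hochberg: nutlin gave -0.088 (SE 0.11, adjusted p 0.62) and the combination 0.24 (SE 0.11, adjusted p 0.1), with a 95% interval from -0.0021 to 0.49. The lines differed by -0.83 (SE 0.18, adjusted p 0.0024) for nutlin, -1.52 (SE 0.18, adjusted p 6.1e-06) for the combination and -0.69 (SE 0.18, adjusted p 0.026) for the combination against nutlin. The last lost its call in 6 of the fits without 1 library: K1 nutlin replicate 1 (-0.60, 0.12), K1 combination replicate 1 (-0.76, 0.061) or 2 (-0.64, 0.11), TPC1 nutlin replicate 1 (-0.64, 0.097) or 3 (-0.75, 0.056) and TPC1 combination replicate 3 (-0.61, 0.079). The response of GAS5 to the combination was therefore smaller in K1 than in TPC1.

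SNHG1, host of 9 snoRNA genes, was at 53.2 and 53 CPM in DMSO, 15.4 and 16.1 with nutlin, 38.4 and 36.6 with GSK2830371 and 33.5 and 39.5 with the combination in TPC1. DMSO was highest and nutlin lowest, both with replicates close together, and GSK2830371 and the combination overlapped between them. SNHG1 fell 3.36-fold with nutlin, log2 fold change -1.75 (SE 0.095, adjusted p 5.8e-07) by edgeR quasi-likelihood and Benjamini-Hochberg. GSK2830371 gave -0.50 (SE 0.091, adjusted p 0.026) and the combination -0.54 (SE 0.091, adjusted p 0.00064), each under 1.5-fold. The latter was called lower with library size alone (-0.59, adjusted p 0.00029) and without TPC1 combination replicate 3 (-0.66, 0.00047). From nutlin to the combination SNHG1 rose 2.31-fold, 1.21 (SE 0.095, adjusted p 6.8e-05), and the interaction was 1.71 (SE 0.13, adjusted p 0.00036), the largest among the 6. The combination thus left SNHG1 where GSK2830371 alone had it, -0.035 (SE 0.091, adjusted p 0.76), well above its level with nutlin.

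In K1 SNHG1 was at 31.8 and 40.4 CPM in DMSO, 21.6 and 18.8 with nutlin, 35.0 and 31.3 with GSK2830371 and 19.3 and 16.8 with the combination. Nutlin and the combination overlapped and were both below DMSO and GSK2830371, which overlapped each other. SNHG1 fell 1.79-fold with nutlin, log2 fold change -0.84 (SE 0.11, adjusted p 8.1e-05) by edgeR quasi-likelihood and Benjamini-Hochberg, and 2.01-fold with the combination, -1.0 (SE 0.11, adjusted p 9.2e-06). Adding GSK2830371 to nutlin gave -0.17 (SE 0.12, adjusted p 0.43), with no return toward DMSO. The lines differed in the nutlin response by 0.88 (SE 0.17, adjusted p 7e-04), a smaller fall in K1, and in the step from nutlin to the combination by -1.37 (SE 0.17, adjusted p 0.00012). For the combination against DMSO they differed by -0.49 (SE 0.16, adjusted p 0.024), under 1.5-fold. That difference was called without K1 DMSO replicate 1 (-0.66, adjusted p 0.005), K1 combination replicate 1 (-0.63, 0.019) or TPC1 combination replicate 1 (-0.61, 0.0086). SNHG1 was the only one of the 6 called lower with nutlin in both lines.

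SNHG12, the least counted of the 6, was at 13.7 and 11.6 CPM in DMSO, 10.6 and 8.90 with nutlin, 9.67 and 8.31 with GSK2830371 and 12.6 and 16.1 with the combination in TPC1. Nutlin and GSK2830371 overlapped each other below DMSO, and the combination overlapped DMSO from above. No change from DMSO was called by edgeR quasi-likelihood with Benjamini-Hochberg: nutlin -0.37 (SE 0.16, adjusted p 0.067), GSK2830371 -0.49 (SE 0.15, adjusted p 0.12), combination 0.20 (SE 0.15, adjusted p 0.28). The combination was 0.57 (SE 0.15, adjusted p 0.025) from nutlin, just under 1.5-fold, and it was called without TPC1 nutlin replicate 1 (0.69, 0.048), without combination replicate 1 (0.73, 0.016) and with a replicate block (0.59, 0.0016). The interaction was 1.06 (SE 0.22, adjusted p 0.021), and it lost its call without TPC1 GSK2830371 replicate 3 (0.95, 0.089), nutlin replicate 3 (0.93, 0.1) or combination replicate 3 (0.87, 0.063). Against GSK2830371 the combination was 0.69 (SE 0.15, adjusted p 0.004), under 1.5-fold without GSK2830371 replicate 3 (0.57) or combination replicate 3 (0.50).

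In K1 SNHG12 was at 5.36 and 6.01 CPM in DMSO, 5.02 and 3.63 with nutlin, 6.75 and 5.85 with GSK2830371 and 4.37 and 3.81 with the combination. Nutlin and the combination overlapped and lay below DMSO and GSK2830371, which also overlapped. Nutlin gave -0.40 (SE 0.16, adjusted p 0.075), and the combination -0.48 (SE 0.16, adjusted p 0.026), under 1.5-fold, by edgeR quasi-likelihood and Benjamini-Hochberg. Without K1 nutlin replicate 1 the nutlin change was called at -0.65 (0.022). Against GSK2830371 the combination was lower, -0.63 (SE 0.16, adjusted p 0.0067), but not without K1 GSK2830371 replicate 1 (-0.52, 0.054) or combination replicate 2 (-0.53, 0.069). For the combination the lines differed by -0.71 (SE 0.23, adjusted p 0.023), which lost its call with library size alone (-0.59, 0.061) and without K1 DMSO replicate 2 (-0.62, 0.093), K1 combination replicate 2 (-0.61, 0.1), TPC1 DMSO replicate 3 (-0.61, 0.067) or TPC1 combination replicate 3 (-0.54, 0.087). From nutlin to the combination the lines differed by -0.64 (SE 0.24, adjusted p 0.12), and was called without TPC1 combination replicate 1 (-0.81, 0.041). SNHG12 is a weakly counted RNA, down to 117 reads in a K1 library, and its calls moved most with the choice of libraries.

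**Figure D2:**
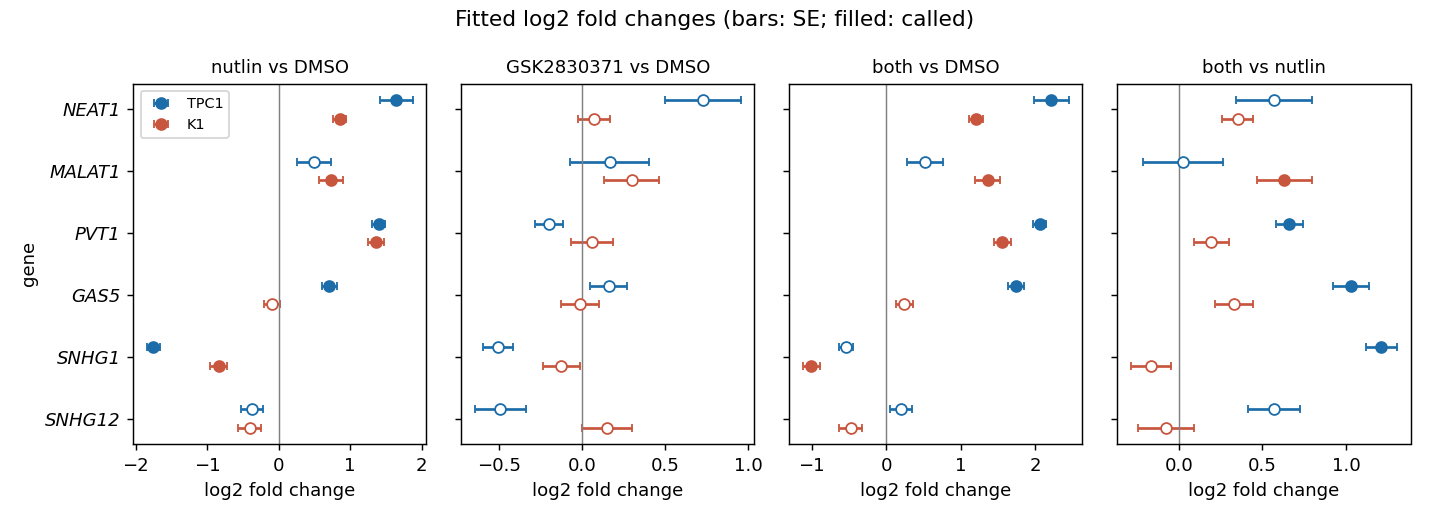
Log2 fold changes with their standard errors in 4 comparisons, filled where called. From nutlin to the combination SNHG1 was at 1.21 in TPC1 and -0.17 in K1.

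The lines were set against each other in 1 joint model of the 16 libraries, with 16738 genes passing its filter. In DMSO K1 had more NEAT1 and less PVT1, GAS5 and SNHG12 than TPC1, 4 calls among the 6 where 46.2% of genes were called. The values were 0.62 (SE 0.18, adjusted p 0.0063) for NEAT1, -1.29 (SE 0.11, adjusted p 2.4e-08) for PVT1, -1.82 (SE 0.13, adjusted p 2.8e-09) for GAS5 and -1.16 (SE 0.16, adjusted p 6.2e-06) for SNHG12 by edgeR quasi-likelihood and Benjamini-Hochberg. GAS5 had the largest of these differences, and also the largest between the lines in the response to the combination. The NEAT1 call was lost with a replicate block (0.45, adjusted p 0.0011) and without K1 DMSO replicate 1 (0.51, 0.059) or TPC1 DMSO replicate 3 (0.36, 0.1). SNHG1 differed by -0.57 (SE 0.11, adjusted p 0.00027), under 1.5-fold, and was called without K1 DMSO replicate 2 (-0.76, 9.7e-05) or TPC1 DMSO replicate 1 (-0.59, 0.00084). In the response to nutlin 3 of the 6 differed (SNHG1 higher in K1, NEAT1 and GAS5 lower; 19.2% of genes), and in the response to the combination 3 (NEAT1, GAS5 and SNHG12 lower in K1; 25.7%). From nutlin to the combination 2 differed (GAS5 and SNHG1 lower in K1; 5.11%).

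The response to GSK2830371 alone gave 0 calls between the lines by edgeR among the 6, where 2.18% of genes were called, and 3 of the 6 had an unadjusted p under 0.05 (NEAT1, SNHG1, SNHG12). DESeq2 was not run on the 16-library fit. The NEAT1 value, -0.66 (SE 0.25, adjusted p 0.15), was called with a replicate block (-0.66, adjusted p 0.0049) and without TPC1 DMSO replicate 1 (-0.96, 0.02). SNHG12, at 0.64 (SE 0.23, adjusted p 0.12), was called with the block (0.64, 0.05). All differences between lines are differences of lines and media together.

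Over 16 libraries, with each line centred on its own mean of log2(CPM + 1), NEAT1 and PVT1 had a correlation of 0.906, the highest among the 6. NEAT1 and MALAT1, neighbours on chromosome 11, had 0.684, and PVT1 and GAS5 0.785. The 3 hosts did not move as 1 group: the correlation was 0.616 for SNHG1 with SNHG12, 0.348 for GAS5 with SNHG12 and -0.221 for GAS5 with SNHG1. NEAT1 and SNHG1 had -0.67. The points share the treatments, and with 2 libraries per group the values describe these libraries only.

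By the same measure over 9838 genes at or above 5 CPM, the genes most like GAS5 were C6orf48 (0.985), ZFAS1 (0.979) and LRRC75A-AS1 (0.977), all of them hosts of snoRNA genes. The genes most like NEAT1 were SLC30A1 (0.979), PLEKHA8 (0.975) and CPEB4 (0.973), and those most like PVT1 were NBEAP1 (0.99), COBLL1 (0.989) and FBXW7 (0.988). SNHG1 was most like MIS12 (0.971), TIAL1 (0.945) and DNAJA3 (0.942). MALAT1 had lower values, TBC1D8B (0.92), TMEM263 (0.898) and FKBP14 (0.896), and SNHG12 the lowest, PABPC4 (0.852), TPRN (0.85) and NOM1 (0.811).

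The 3 hosts were set beside 17 other noncoding snoRNA hosts that passed the filter. The list is not complete: it lacks C6orf48 and LRRC75A-AS1, which rose with the combination in TPC1 (1.76 and 1.03). In TPC1 the listed hosts were split. Nutlin called EPB41L4A-AS1 higher and 5 lower, led by SNHG10 (-1.89), SNHG4 (-1.22) and SNHG17 (-1.12), with a median of -0.088 over the list, 6 of 17 where 35.5% of all genes were called. With the combination 5 rose, SNHG8 (1.80), EPB41L4A-AS1 (1.46), ZFAS1 (1.20), SNHG7 (0.90) and SNHG5 (0.77), and 4 fell, among them SNHG10 (-1.96) and SNHG4 (-1.27), against 22.5% of all genes higher and 21.7% lower. Between nutlin and the combination 6 rose and 1 fell (6.46% and 5.66% of all genes), and with GSK2830371 2 fell and 0 rose (0.681% and 0.72%). Both counts of calls were lower in fits without some single libraries, as given below. The interaction called 8 of 17 higher and 0 lower (2.82% and 3.5% of all genes), SNHG7 (1.37) and SNHG8 (1.36) most, as it did for SNHG1, GAS5 and SNHG12. That count ran from 2 to 9 when single libraries were left out.

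In K1 edgeR called 0 of these 17 hosts in any of the 6 comparisons, where 2.23% to 15.7% of all genes were called. For nutlin 5, for GSK2830371 2 and for the combination 6 had an unadjusted p under 0.05, and DESeq2 called 0 in each of the 6. With library size alone 1 was called with the combination. Between the lines the combination response differed for 8, 4 in each direction (11.9% of all genes higher and 13.8% lower), among them SNHG8 (-1.81), ZFAS1 (-1.19) and SNHG10 (1.84). Of these 17 and the 3 hosts among the 6, SNHG1 was therefore the 1 with a called change from DMSO in K1.

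**Figure D3:**
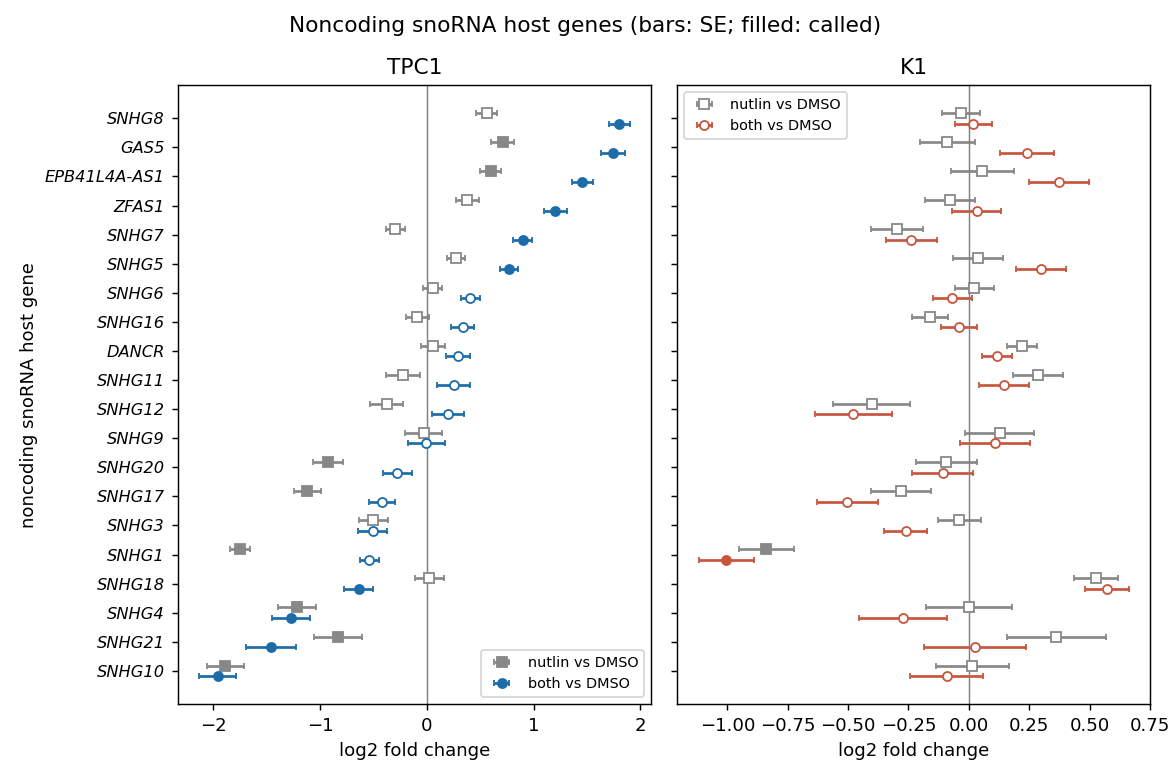
Noncoding snoRNA hosts in each line, nutlin (squares) and the combination (circles) against DMSO, with standard errors. In TPC1 they ran from -1.96 (SNHG10) to 1.80 (SNHG8) with the combination.

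The start sequences were compared with the responses. Among the other noncoding hosts, SNHG6, SNHG8, ZFAS1 and EPB41L4A-AS1 (4 of 18, 22.2%) begin with C and at least 4 more pyrimidines. With the combination in TPC1 3 of these 4 rose and 0 fell (median 1.33), and of the 13 tested without such a start 2 rose and 4 fell (median -0.28). Of protein-coding snoRNA hosts 9 of 21 (42.9%) have this start, and 4 of these rose and 0 fell, against 2 and 5 of 11 without it. Over all tested genes with this start 27.5% rose and 17.1% fell (469 genes, median 0.20), against 22.1% and 22.4% of 13184 others. In K1 the combination called 0 of the 4 and 0 of the 13. No difference between genes with and without the start was tested.

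Protein-coding hosts and TOP mRNAs give the setting. Of 20 coding hosts tested, nutlin in TPC1 called 2 higher and 5 lower, led by GNL3 (-1.44), NOP56 (-1.38) and NCL (-1.33), 7 of 20 where 35.5% of all genes were called. The combination called 6 higher, EEF2 (1.19) the most, and 5 lower, led by NCL (-1.42), against 22.5% and 21.7% of all genes. With library size alone the 6 became 4. In K1 the combination called 7.62% of all genes higher and 8.09% lower. Of the 20 coding hosts it called 2 there, NOP56 (-0.84) and NCL (-0.66), both lower. Of 22 TOP mRNAs 10 rose with the combination in TPC1 and 1 fell (8 and 1 with library size alone), while in K1 edgeR called 0, with 9 at an unadjusted p under 0.05.

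The snoRNA genes inside the 3 hosts were counted too, at low levels, so they are given as sums and counts. They were not selected for by the library method, and reads on them and on unspliced host RNA cannot be told apart. Summed over 10 genes inside GAS5, TPC1 had 9.69 and 9.27 CPM in DMSO, 3.87 and 5.42 with nutlin, 7.91 and 7.55 with GSK2830371 and 5.06 and 6.04 with the combination. The sums went down while the host went up, with nutlin and the combination below DMSO and no overlap. Inside SNHG1 the sums were 3.81 and 2.73 in DMSO, 0.562 and 0.827 with nutlin, 3.15 and 2.32 with GSK2830371 and 1.02 and 1.24 with the combination, from 17 to 198 reads. Inside SNHG12 they were 4.19 and 4.57, 1.88 and 2.31, 2.24 and 3.50 and 1.85 and 2.53 in the same order. For all 3 hosts in TPC1 the nutlin and combination sums lay below DMSO. With 2 libraries per group, how often other genes separate in this way was not counted.

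Tested singly, 12 of 21 of these small RNA genes fell and 0 rose with nutlin in TPC1 (3 of 9 in GAS5, 5 of 8 in SNHG1, 4 of 4 in SNHG12), where 18% of all genes fell. With the combination 10 fell (4, 4 and 2), against 21.7%. With the combination all 9 in GAS5 had a negative value, median -0.85, beside 1.74 for GAS5 itself. The medians with the combination were -2.18 in SNHG1 and -0.93 in SNHG12. So against DMSO in TPC1 the counts on GAS5 rose while those on its snoRNA genes went down. With the combination SNHG12 itself was at 0.20 and SNHG1 at -0.54, neither called. The medians inside SNHG12 and SNHG1 thus also lay below the values of the hosts. From nutlin to the combination in TPC1 7 of the 9 inside GAS5 were above 0, with a median of 0.47 and 0 called, where GAS5 rose by 1.03. In K1, where 5.43% of all genes fell with nutlin and 8.09% with the combination, nutlin called 0 of 21 by edgeR, with 2 at an unadjusted p under 0.05, and the combination called 3 lower, with medians of -0.48 in GAS5, -0.64 in SNHG1 and -0.58 in SNHG12. In K1 the sums inside GAS5 were 4.68 and 5.45 in DMSO and 3.16 and 3.44 with the combination. Those inside SNHG1 were 2.02 and 2.59 in DMSO and 1.67 and 1.48 with the combination. Inside SNHG12 in K1 the groups overlapped, at 1.23 and 2.08 in DMSO, 1.56 and 1.335 with nutlin and 0.991 and 1.24 with the combination.

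**Figure D4:**
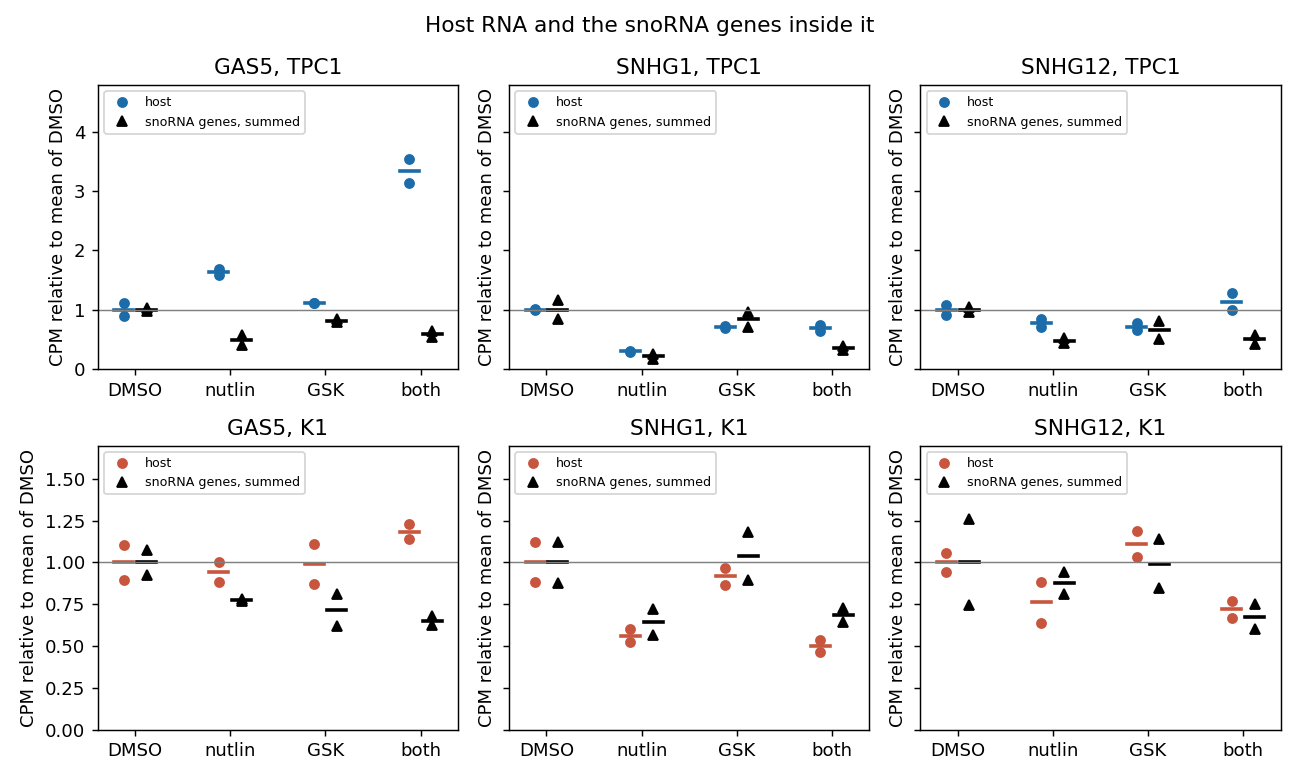
Host RNA (circles) and the summed snoRNA genes inside it (triangles), each relative to its mean in DMSO. In TPC1 GAS5 itself changed by 1.74 in log2 with the combination, and the genes inside it had a median of -0.85.

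PVT1 holds 4 microRNA genes, and their summed reads moved with it. In TPC1 they went from 0.725 and 0.868 CPM in DMSO to 5.81 and 7.78 with the combination. These bases overlap PVT1, and reads from PVT1 and from the microRNA precursors cannot be told apart.

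Neighbouring genes were read beside the RNAs. MYC, 51575 bases from PVT1 on the same strand, averaged 319 CPM in DMSO, 124 with nutlin, 402 with GSK2830371 and 150.2 with the combination in TPC1, and 66.1, 33.1, 67.8 and 38.9 in K1. Against DMSO it fell where PVT1 rose: log2 fold change -1.37 (SE 0.098, adjusted p 3.3e-06) with nutlin and -1.09 (SE 0.097, adjusted p 1e-05) with the combination in TPC1, and -1.0 (SE 0.13, adjusted p 3.9e-05) and -0.77 (SE 0.12, adjusted p 2e-04) in K1, by edgeR quasi-likelihood and Benjamini-Hochberg. From nutlin to the combination in TPC1, where PVT1 rose, MYC was at 0.28 (SE 0.096, adjusted p 0.062), not called. FRMD8, 9249 bases from NEAT1, rose in TPC1 with nutlin (0.99) and the combination (1.93) but was at -0.07 in K1, a difference between the lines of -2.03 (adjusted p 4.2e-10). From nutlin to the combination in TPC1 FRMD8 rose (0.94) and NEAT1 was not called (0.57).

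The next 2 neighbours were taken by position alone, outside the gene lists. SLC3A2, an amino acid transporter subunit, starts 51 bases from SNHG1 on the opposite strand. In TPC1 it was at -0.033 with nutlin and rose by 1.03 from nutlin to the combination, and in K1 it rose by 1.21 over the same step, where SNHG1 was at -0.17. Over this step both genes thus rose in TPC1, while in K1 SLC3A2 rose and SNHG1 had no called change. Against DMSO in TPC1 the combination raised SLC3A2 (0.99), and SNHG1 was at -0.54, not called. GSK2830371 alone also raised SLC3A2 in K1 (0.65), and in TPC1 it left SLC3A2 at 0.36, not called. TAF12, 4697 bases from SNHG12, rose with the combination in TPC1 (1.26), where SNHG12 had no called change.

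Proteins that work with these RNAs were counted from lists. Of 35 paraspeckle proteins, the combination in TPC1 called 17 lower and 4 higher (median -0.56), with ZC3H6 (2.94) highest and FIGN (-1.84), RBM12 (-1.55) and HNRNPR (-1.44) lowest; in K1 6 fell and 3 rose (median -0.28). Of all genes 21.7% fell and 22.5% rose in TPC1, and 8.09% and 7.62% in K1. NEAT1 rose while most called genes for its protein partners fell. Of 19 speckle proteins and MALAT1 partners 13 fell and 0 rose with the combination in TPC1 (SRSF2 -2.22, SRSF7 -1.74), and 4 fell and 0 rose in K1 (SRSF7 -1.15, SRSF2 -0.96). Of 17 nonsense-mediated decay factors, the machinery that degrades the spliced hosts, 5 fell and 1 rose with the combination in TPC1 (2 rose with DESeq2 size factors), EIF4A3 (-1.32) and UPF3B (-1.01) down and SMG6 (1.16) up, where 44.2% of all genes were called. In K1 edgeR called 0 of the 17, with 10 at an unadjusted p under 0.05.

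Other noncoding RNAs linked to p53 show how NEAT1 and PVT1 rank. Of 8 tested in TPC1, 6 rose and 0 fell with nutlin: LINC01021 (3.94), TP53TG1 (2.24), MIR22HG (1.61) and LINC00657, also called NORAD (1.05), had the largest changes above 5 CPM, where 17.5% of all genes rose. NEAT1 (1.65) and PVT1 (1.40) lay within this range. With the combination 5 rose, where 22.5% of all genes rose and 21.7% fell. From nutlin to the combination 0 rose and 2 fell (LINC00472 -1.07, CCAT1 -0.74), against 6.46% and 5.66% of all genes, while PVT1 rose by 0.66. In K1 3 of 7 rose with nutlin, including TP53TG1 (1.05) and MIR22HG (0.90), and 5 with the combination, against 3.84% and 7.62% of all genes. GSK2830371 alone called 0 in each line by edgeR, where 1.4% of all genes were called in TPC1 and 2.23% in K1. In each line 3 had an unadjusted p under 0.05.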

How the data were processed

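The deposited table holds raw read counts per gene symbol. The authors trimmed reads, aligned them to GRCh37 with TopHat2 2.0.13, removed low mapping quality and counted exon reads by strand with HTSeq 0.6.1. TPC1 columns are numbered 1 and 3 where the labels say 1 and 2, so those numbered 3 were assigned to their treatment only.

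Counts were scaled by TMM. Genes above 0.1 CPM in at least 2 libraries were fitted with edgeR 4.0.16 (quasi-likelihood; limma 3.58.1, R 4.3.3), 1 fit per line and 1 of all 16 libraries for 5 differences between lines, with Benjamini-Hochberg adjustment over all tested genes. Alternatives used DESeq2 1.42.0 size factors or library size alone, filterByExpr, no filter, the DESeq2 Wald test, the compared groups alone, the replicate number as a block, and each library left out. Sequences were read from the GRCh37 genome at GENCODE 44 starts, and small RNA genes inside the hosts from RefSeq. Tables and plots used Python 3.11.15 and matplotlib 3.10.9.

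Genes named are the 6, up to 4 per list and comparison with the largest change among called genes at 5 CPM or more, neighbours by position, the 3 genes most like each RNA, and markers with the highest level. The 6 RNAs and the lists were chosen with earlier results of these data known.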

Additional observations from a re-analysis of the deposited data

Results flagged for a closer look

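NEAT1 responded differently in the 2 lines: K1 minus TPC1 was -1.05 (SE 0.25, adjusted p 0.0036) for the combination against DMSO, 2.22 in TPC1 and 1.20 in K1, and -0.84 (0.25, 0.019) for nutlin, 1.65 and 0.85. GAS5 differed by -1.52 (0.18, 6.1e-06) for the combination, 1.74 and 0.24, by -0.83 (0.18, 0.0024) for nutlin, 0.71 and -0.088, and by -0.69 (0.18, 0.026) for the combination against nutlin, 1.03 and 0.33. SNHG1 differed by 0.88 (0.17, 7e-04) for nutlin, -1.75 and -0.84, and by -1.37 (0.17, 0.00012) for the combination against nutlin, 1.21 and -0.17. SNHG12 differed by -0.71 (0.23, 0.023) for the combination, 0.20 and -0.48. All come from the edgeR quasi-likelihood fit of 16 libraries with Benjamini-Hochberg adjustment. The calls for NEAT1 with nutlin, GAS5 for the combination against nutlin and SNHG12 with the combination were lost in some alternative fits, given above. Line and medium differ together and cannot be told apart. What else sets the lines apart was not tested.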

How the results depend on the processing

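The direction of every called change in the 6 RNAs was kept under all alternatives, and the values that changed sign were uncalled in the fit with all libraries. Counts of the 6 called that moved by more than 1.5 times are given first. The DESeq2 Wald test called 0 for the combination against nutlin in K1 (edgeR 1). With no filter 1 was called for GSK2830371 in TPC1 (edgeR 0). Leaving out single libraries gave 0 to 1 called for the combination against nutlin and for the interaction in K1, 2 to 4 for the interaction in TPC1, and, between the lines, 2 to 5 for the combination, 1 to 3 for the combination against nutlin and 0 to 1 for GSK2830371. Smaller moves were nutlin in K1 4 to 3 or 5, the combination in TPC1 3 to 4, the combination against nutlin in TPC1 3 to 4, against GSK2830371 5 to 4 in K1 and 4 to 3 or 5 in TPC1, and, between the lines, 4 to 3 or 5 in DMSO and 3 to 2 for nutlin. Of the other noncoding hosts, library size alone called 1 for the combination in K1 and 1 for GSK2830371 in TPC1, the compared groups alone called 0 for GSK2830371 in TPC1, and leaving out libraries gave 0 to 1 in K1 for the combination against DMSO and against GSK2830371, and in TPC1 4 to 7 for the combination against nutlin (7 with all), 0 to 1 for GSK2830371 (2 with all) and 2 to 9 for the interaction (8 with all).

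Whether the replicate number pairs libraries is not in the labels. The log2 difference between replicates was correlated across treatments at 0.519 to 0.724 in TPC1 (12308 genes) and -0.386 to 0.406 in K1 (12543 genes). With the replicate block the 6 gave these calls: in TPC1 nutlin 4, GSK2830371 1, combination 3, combination against nutlin 4, combination against GSK2830371 4 and interaction 4; in K1 4, 0, 4, 1, 5 and 0. Between the lines the block gave 3 in DMSO, 3 for nutlin, 2 for GSK2830371, 4 for the combination and 2 for the combination against nutlin.

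These log2 values, uncalled with all libraries, changed sign when 1 library was left out; MALAT1 was called at the top of 2 of the ranges, 0.67 and 0.63. For GAS5 in K1 they ran from -0.20 to 0.15 with GSK2830371 and -0.23 to 0.068 with nutlin. For MALAT1 in TPC1 the combination ran from -0.0364 to 0.67 against GSK2830371 and -0.37 to 0.34 against nutlin, GSK2830371 from -0.0859 to 0.48 and the interaction from -0.53 to 0.17, and in K1 the interaction from -0.0448 to 0.63. Between the lines MALAT1 ran from -0.53 to 0.00062 in DMSO, -0.16 to 0.37 for GSK2830371 and -0.094 to 0.43 for nutlin. NEAT1 ran from -0.032 to 0.18 with GSK2830371 in K1 and -0.50 to 0.13 for the interaction in TPC1. PVT1 in K1 ran from -0.12 to 0.28 with GSK2830371 and -0.085 to 0.32 for the interaction, and between the lines from -0.25 to 0.15 for nutlin. SNHG1 ran from -0.15 to 0.078 for the combination against GSK2830371 in TPC1, and in K1 from -0.29 to 0.060 with GSK2830371 and -0.23 to 0.12 for the interaction, 0.0083 with library size alone. SNHG12 in K1 ran from -0.30 to 0.17 for the combination against nutlin and -0.45 to 0.023 for the interaction, and between the lines from -0.31 to 0.16 for nutlin.

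Over all genes the calls for GSK2830371 in TPC1, 214, became 125 with the compared groups alone, 377 with no filter, 480 with the block and down to 22 without 1 library. The interaction in TPC1, 965, became 1573 with the block and 345 without 1 library. In K1 leaving out a library gave 177 to 638 for GSK2830371, 20 to 691 for the interaction and down to 227 for the combination against nutlin. Between the lines the GSK2830371 calls, 365, became 613 with the block and ran from 53 to 778.

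With library size alone the median of all genes moved from -0.0032 to -0.11 for the combination against GSK2830371 in TPC1 and from -0.019 to 0.091 for the combination between the lines.

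Limits: the 2 libraries of a group leave 4 residual degrees of freedom per line, so a missing call does not show that nothing changed. TPC1 replicate 3 was sequenced deeper than replicate 1. Isoforms of NEAT1 and the other RNAs were not separated, since only counts per gene were analysed here. RNA without a poly(A) tail was seen in part, and 1 time point and 1 dose of each drug were measured. Start sites come from annotation and were not measured in these cells. Differences between lines include the medium.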

Other observations

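Beyond these 6 RNAs, LINC and antisense genes, grouped by name, were called higher more often than lower with the combination in TPC1. Of 174 tested genes named LINC, 58 rose and 20 fell (median log2 fold change 0.50), and of 367 antisense genes 122 rose and 38 fell (0.39), against 22.5% higher and 21.7% lower over all genes. In K1 the counts were 22 and 9 of 204 LINC genes (0.19) and 30 and 26 of 387 antisense genes (0.12), against 7.62% and 8.09%. MicroRNA host genes went the other way in TPC1, 2 higher and 6 lower of 12 (median -0.59). What separates these classes was not tested.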
